A study of Mus musculus with 12 samples.

Results

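The 48 genes described here encode the machinery of mitosis: the kinase and cyclins that start it, the checkpoint that delays it, the motors, spindle and kinetochore proteins that move chromosomes, and the proteins that divide the cell afterwards. They were chosen by name, as a list of symbols, and 48 of 48 were found among the 13554 genes of the deposited expression table. RNA of the liver was sequenced 3 days after part of it had been removed, in male mice of the strain C57Bl/6J with the WT (wild-type) genotype, in 12 libraries that form 4 groups of 3. PH70 is a partial hepatectomy of 70%, PH80 one of 80%, PH80_HC the same 80% resection in an arm labelled HC, and PH80_G+H the 80% resection with G-CSF and HNF4a. G-CSF is a cytokine that mobilises neutrophils from bone marrow, and HNF4a is a transcription factor that maintains the hepatocyte state. All mice shared strain, sex, genotype and day, and none was left without an operation, so every comparison is between operated livers. The labels say neither what HC stands for nor how, when or at what dose G-CSF and HNF4a were given, nor whether the 3 libraries of a group are 3 animals. P-values therefore measure the spread between libraries, which may be technical.

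Hepatocytes rarely divide in the adult liver. After part of the organ is removed they re-enter the cell cycle, copy their DNA and then pass through mitosis, some becoming polyploid by skipping chromosome segregation or cytokinesis. Genes of mitosis are transcribed late in the cycle, in G2 and M phase. Their promoters are known for a short element called CHR (cell cycle genes homology region), which binds the DREAM and MuvB complexes, and for CCAAT boxes, which bind the factor NF-Y. In bulk liver RNA, a change in the number of cycling cells and a change in the amount of each transcript per cycling cell cannot be told apart, nor can the cell type that carries a transcript.

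The promoters of a few of these genes show how the 2 motifs are laid out. Of the 48 genes, 38 had a promoter in the RefSeq-derived table of the GRCm38.p6 assembly, and 4 are printed here because 2 of them belong to the genes that passed the test (Cdk1 and Kif15), 1 had the largest difference between PH80 and PH70 (Ube2c), and 1 carries CCAAT without CHR (Aurka). Each is the 250 bases before the RefSeq transcript start, 5′ to 3′ on the gene's own strand, in lower case. Capitals mark TTTGAA (CHR) and CCAAT on either strand, so that TTCAAA and ATTGG are the same motifs read from the other strand. The stretches are chr10:69352913-69353162 on the minus strand for Cdk1, chr9:122950831-122951080 on the plus strand for Kif15, chr2:164769679-164769928 on the plus strand for Ube2c and chr2:172370571-172370820 on the minus strand for Aurka.
Cdk1: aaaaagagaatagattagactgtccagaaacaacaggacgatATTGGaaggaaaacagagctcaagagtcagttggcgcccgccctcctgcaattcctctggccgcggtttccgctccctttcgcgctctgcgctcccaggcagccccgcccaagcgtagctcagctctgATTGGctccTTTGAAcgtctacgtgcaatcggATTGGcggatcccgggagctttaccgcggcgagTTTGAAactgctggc
Kif15: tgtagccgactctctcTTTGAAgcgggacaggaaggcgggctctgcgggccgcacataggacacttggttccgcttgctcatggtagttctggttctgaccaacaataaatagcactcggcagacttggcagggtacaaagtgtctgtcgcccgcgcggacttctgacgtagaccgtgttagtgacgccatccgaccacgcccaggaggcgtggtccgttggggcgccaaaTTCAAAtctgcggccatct
Ube2c: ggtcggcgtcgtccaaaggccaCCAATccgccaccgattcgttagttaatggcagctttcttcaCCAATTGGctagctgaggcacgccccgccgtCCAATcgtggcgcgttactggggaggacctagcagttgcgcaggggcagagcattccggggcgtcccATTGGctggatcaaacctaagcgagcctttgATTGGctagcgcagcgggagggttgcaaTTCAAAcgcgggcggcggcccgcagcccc
Aurka: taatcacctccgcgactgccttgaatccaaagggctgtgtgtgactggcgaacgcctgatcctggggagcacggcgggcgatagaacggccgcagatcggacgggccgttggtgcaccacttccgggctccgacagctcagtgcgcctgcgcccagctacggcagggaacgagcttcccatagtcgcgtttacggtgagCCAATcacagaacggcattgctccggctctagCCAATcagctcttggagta
The GENCODE annotation places the outermost transcript start of Cdk1, Kif15 and Ube2c inside the printed stretch, so distances depend on the annotation. The Cdk1 promoter held CHR at 71 and 15 bases before the start and CCAAT at 208, 80 and 48. Kif15 held CHR at 234 and 19 bases and no CCAAT. Ube2c held CHR at 29 bases and 6 CCAAT matches. Aurka held no CHR and CCAAT at 51 and 19 bases.

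Over the 38 genes, TTTGAA on either strand was present in 15 promoters (39.5%), beside 18.3% of the 27025 genes with a promoter in the table and 12.9% of the 10061 other genes that were tested here. The following shares are given beside those of all genes and of the other tested genes, in that order. The variant TTCGAA was present in 2 (5.26%, beside 1.55% and 2.13%). CCAAT was present in 29 (76.3%, beside 37.5% and 40.4%), and 21 promoters (55.3%, beside 11.5% and 14.8%) held at least 2 copies. CHR or its variant together with CCAAT was found in 13 (34.2%, beside 7% and 5.62%). The forkhead letters TAAACA, bound by factors such as FOXM1, were present in 5 (13.2%, beside 13.5% and 9.74%), and the E2F letters TTCCCGC or TTGGCGC in 5 (13.2%, beside 6.45% and 11.2%). The nearest CHR or variant lay 15 to 188 bases before the start, with a median of 30, and the nearest CCAAT lay 5 to 141 bases before it, with a median of 28. These are matches of letters in a window of 250 bases on both strands, and they were not tested as binding sites.

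**Figure D1:**
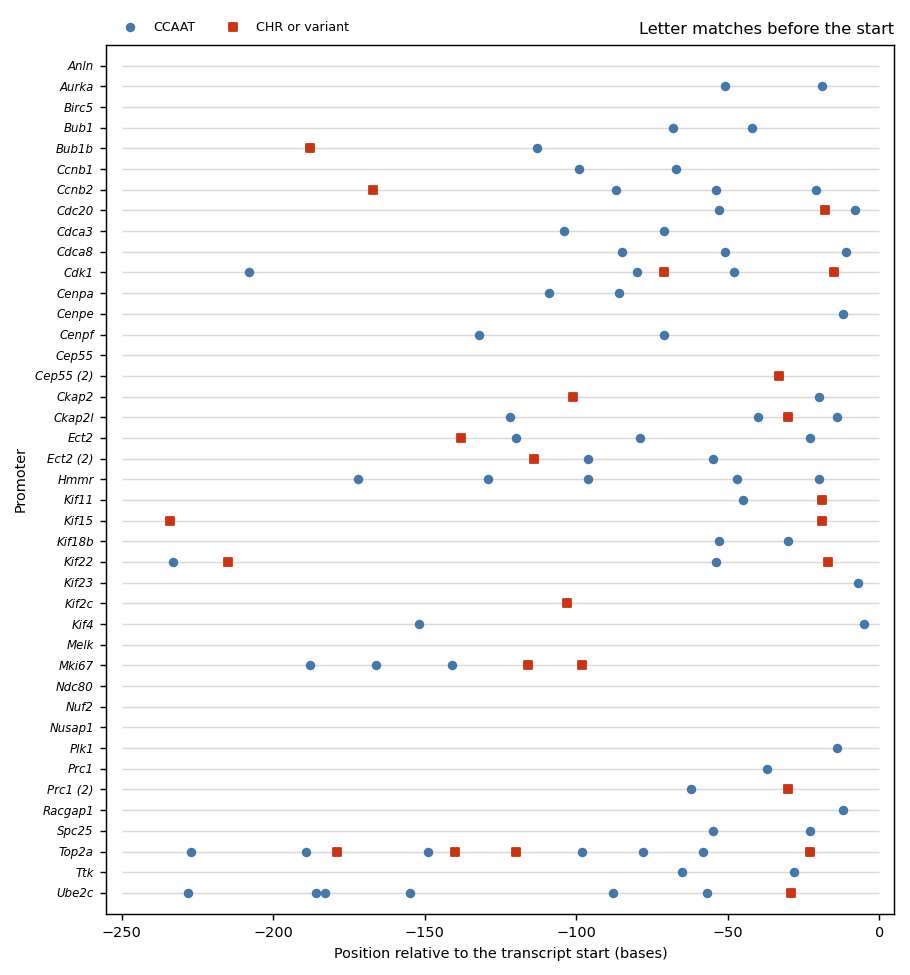
Positions of CCAAT (blue circles) and of CHR or its variant TTCGAA (red squares) in the 250 bases before the transcript start, 1 row for each promoter of the 38 genes with an entry (a second promoter of a gene is marked 2). The CCAAT nearest to the start lies within 100 bases of it in 27 of the 29 genes that have one, and some genes hold further matches farther out.

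Levels of the mitosis genes spanned a wide range. Values here are normalised reads, the deposited counts scaled per library. Per kilobase of the longest transcript, mean normalised reads over the 12 libraries were highest for Cdca3, a protein that promotes mitotic entry (1280 per kilobase), and for Cdc20, the activator of the anaphase-promoting complex (1254 per kilobase). They were lowest for Kif15, a spindle kinesin (17.8 per kilobase). All 48 genes passed the filter on low values (at least 10 in at least 3 libraries), as did 12570 genes in all. The group mean of PH80 was the highest of the 4 for all 48 genes. For 28 genes the order from highest to lowest was PH80, PH80_HC, PH70, PH80_G+H, and for 17 it was PH80, PH70, PH80_HC, PH80_G+H. Under these orders most neighbouring groups did not differ beyond their spread, as the comparisons below show.

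The libraries of a group were far from equal for these genes. On the log2(value + 1) scale, each gene's deviation from its mean over the 12 libraries was averaged over the 48 genes. The 3 PH70 libraries lay at -0.10, -0.03 and -0.04 (replicates 1 to 3). The PH80 libraries lay at 0.24, 1.28 and 0.48, the PH80_HC libraries at -0.70, 0.28 and 0.23, and the PH80_G+H libraries at -0.58, -0.23 and -0.82. PH80 replicate 2 was thus the highest library, and it held the highest value of all 12 for 47 of the 48 genes. The exception was Spc24, a subunit of the NDC80 kinetochore complex, which was highest in PH80 replicate 1. PH80_G+H replicate 3 held the lowest value for 26 genes, PH80_HC replicate 1 for 11 and PH80_G+H replicate 1 for 8. The median within-group SD of the 48 genes was 0.20 in PH70, where that of all genes tested was 0.25. It was 0.59 in PH80 and 0.57 in PH80_HC, where all genes had 0.28 and 0.34, and 0.41 against 0.25 in PH80_G+H. Replicate 2 of PH80 and replicate 1 of PH80_HC therefore weigh on the results, which are also given without them.

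**Figure D2:**
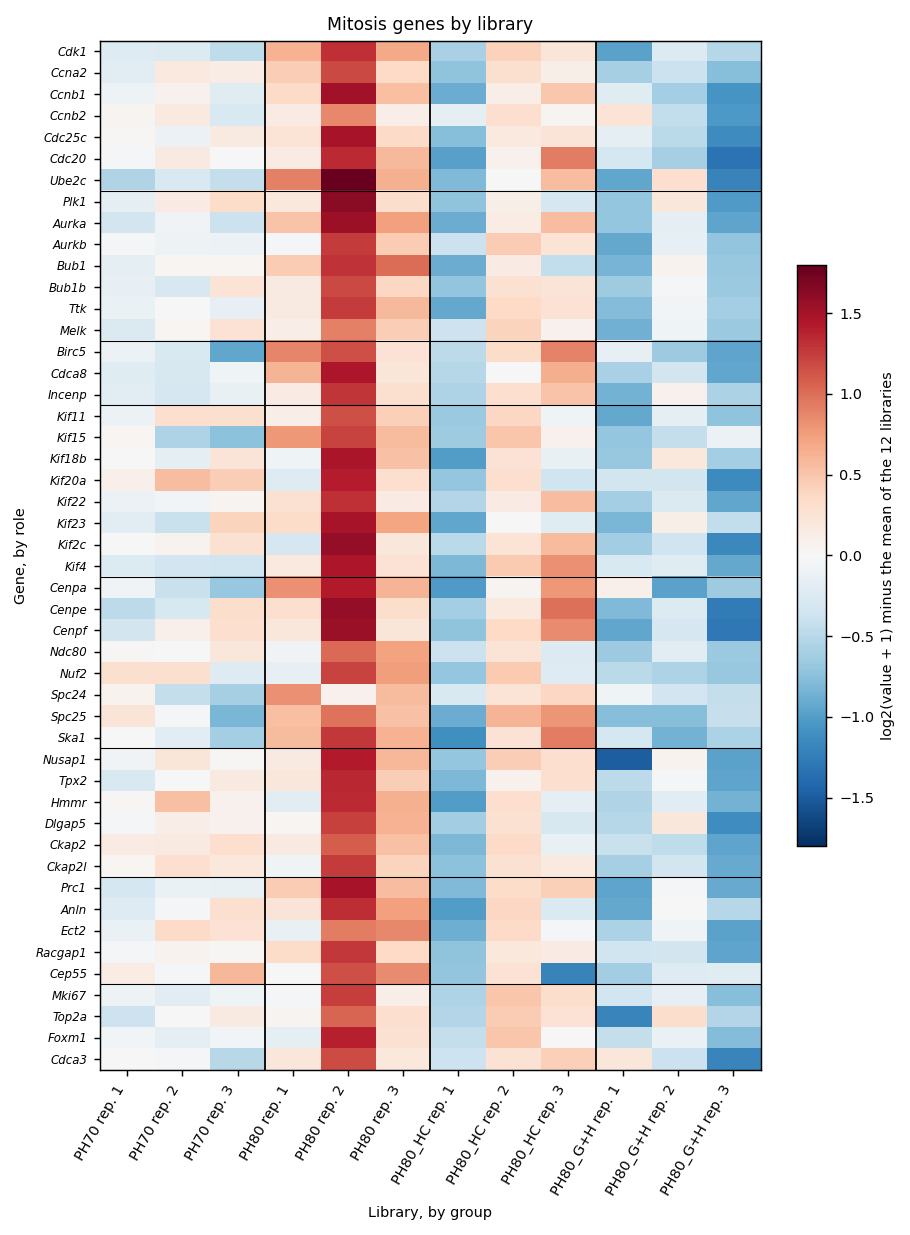
Heat map of the 48 genes (rows, ordered by role, with lines between roles) in the 12 libraries (columns), coloured by log2(value + 1) minus the gene's mean over the 12 libraries. The column of PH80 replicate 2 is red in almost every row, and those of PH80_HC replicate 1 and PH80_G+H replicate 3 are mostly blue.

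Reads recovered from the deposited values, summed over the genes of the table, ranged from 9.72 M to 44.5 M per library. Their number sets the precision of the rarer transcripts such as Kif15. Markers of other cells moved between libraries too. The summed value of 12 neutrophil markers (S100a8, S100a9 and 10 others) was 154 to 520 in PH70, 319 to 6065 in PH80, 638 to 2366 in PH80_HC and 389 to 2446 in PH80_G+H, and the highest value was that of PH80 replicate 2, the library highest for mitosis genes. In PH80 replicate 3, the second highest library of PH80 for mitosis genes, the sum was the lowest of its group (319). The PH70 libraries had 154, 296 and 520, so this value lay within their range. Ly6g, Ltf and Mpo, 3 of the 12 markers, stood at 0 in PH80 replicate 3, and the other markers made up its sum of 319. Only 10 of the 12 markers passed the filter on low values, so a value of 0 can lie near the floor. The sum of 9 macrophage and monocyte markers was also highest within PH80 in replicate 2 (18294, beside 7131 to 9037 in the others), as was that of 9 stellate cell and mesenchymal markers (23050, beside 7658 to 9254). Of the marker lists, only Jchain passed the test in any comparison (higher in PH80_HC than in PH80 and PH70). Of all genes, 0.00796% to 3.82% passed, depending on the comparison. Of the 8 hepatocyte markers 0 did, which is near those shares. The sum of the 8 hepatocyte markers was nevertheless lower in PH80 (2.19 M to 2.57 M) than in any library of PH70 (3.13 M to 3.46 M), PH80_HC (2.89 M to 4.41 M) or PH80_G+H (2.70 M to 3.35 M), and 8 of 8 had a lower mean in PH80 than in PH70. The part of these cells in the mitosis values was not tested.

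The comparison of PH80 with PH70 asks how the larger resection differs from the standard one. All 48 mitosis genes had a higher mean in PH80, by a median of 0.64 on the log2 scale (1.56-fold), from 0.13 (Kif20a) to 1.52 (Ube2c), while the median over all 12570 genes tested was 0.01. Cdk1, the kinase whose activity drives entry into mitosis, and Kif15, a kinesin that helps to hold the spindle poles apart, rose. These 2 of 48 genes (both higher) passed the threshold of 0.05 on the Benjamini-Hochberg adjusted p from limma, beside 3.82% of all genes in either direction and 1.09% called higher. At an unadjusted p under 0.05, 19 of 48 were higher, beside 10.2% of all genes. In 23 of 48, the 3 PH80 libraries all lay above the 3 PH70 libraries, beside 12.8% of all genes. DESeq2 on the recovered reads called 10 of 48 higher, beside 2.78% of all genes. EdgeR called 1 higher, beside 117 of 12570 genes. Without PH80 replicate 2, the mean was higher in 45 of 48 genes with a median of 0.32. Then 23 of 48 lay wholly above PH70 (beside 18.8% of all genes with 2 libraries against 3). In that setting 0 passed in limma and 2 in DESeq2. The shares of all genes called are not given, so these 2 counts describe the setting and are not a result about the mitosis genes.

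Cdk1 (chromosome 10, 69335146 to 69352938, minus strand, in the GRCm38 annotation of GENCODE) had 1128, 1115 and 961 normalised reads in PH70 and 2049, 3292 and 2116 in PH80. PH80_HC gave 879, 1763 and 1531, and PH80_G+H gave 675, 1109 and 925. The PH80 libraries lay above every other library, and those of PH80_HC and PH80_G+H spanned the level of PH70. Between PH70 (1068 ± 92.7, SD, n = 3) and PH80 (2486 ± 699, SD, n = 3) Cdk1 rose 2.28-fold (log2 difference 1.19 ± 0.27, SE; limma adjusted p = 0.0305). It was also the single mitosis gene of 48 called in limma's F test for any difference among the 4 groups (adjusted p = 0.0434), where 1.85% of all genes were called. At an unadjusted p under 0.05 this F test held 40 of 48, beside 19.1% of all genes.

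Kif15 (chromosome 9, 122951046 to 123018733, plus strand) had few reads. Its values were 80.5, 53.0 and 46.8 in PH70 and 135, 183 and 117 in PH80, with no overlap. In PH80_HC they were 50.2, 111 and 83.0, and in PH80_G+H 47.8, 57.9 and 72.7, so that PH80_G+H lay within the range of PH70. The rise in PH80 was 2.41-fold (log2 difference 1.27 ± 0.32, SE; limma adjusted p = 0.0448). Neither call is firm: over 28 alternative settings the adjusted p ran from 0.0013 to 0.116 for Cdk1 and from 0.0122 to 0.184 for Kif15. Both calls were lost on leaving out any library of PH70, PH80 replicate 1 or PH80 replicate 2.

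Among the other genes of mitotic entry and the anaphase-promoting complex, Ube2c stood nearest the threshold. Ube2c, the ubiquitin-conjugating enzyme of that complex (chromosome 2, 164769898 to 164778822), had 715, 857 and 772 in PH70 and 1949, 3565 and 1617 in PH80. The groups did not overlap, and the log2 difference was 1.52 ± 0.40 (SE, limma adjusted p = 0.0530; DESeq2 adjusted p = 0.00362). Cdc20 (chromosome 4, 118432901 to 118437352) had 1966, 2228 and 1978 in PH70 and 2207, 5030 and 2972 in PH80. Here the lowest PH80 library fell inside the PH70 range, and the difference of 0.64 ± 0.41 (SE) did not pass (adjusted p = 0.384). The mitotic cyclins Ccna2, Ccnb1 and Ccnb2 differed by 0.63, 0.88 and 0.40 and did not pass either.

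Of the mitotic kinases and checkpoint genes, Aurka, the kinase of the spindle poles (chromosome 2, 172356190 to 172370535), had 586, 700 and 562 in PH70 and 1049, 2139 and 1223 in PH80. All PH80 libraries lay above PH70, with a difference of 1.19 ± 0.35 (SE, limma adjusted p = 0.0744). Bub1, a kinase of the spindle checkpoint (chromosome 2, 127801122 to 127831865), had 131, 152 and 152 in PH70 and 204, 366 and 299 in PH80. This too was without overlap, at 0.96 ± 0.31 (SE, adjusted p = 0.103). Plk1, Bub1b and Melk overlapped between the groups.

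The chromosomal passenger complex corrects faulty attachments of chromosomes to the spindle. Its subunit Birc5 (survivin, chromosome 11, 117849251 to 117855743) had 1087, 963 and 611 in PH70 and 2157, 2600 and 1399 in PH80, a difference of 1.20 ± 0.35 (SE, limma adjusted p = 0.0717) without overlap. Cdca8 and Incenp also did not overlap, whereas Aurkb, the kinase of the complex, did. Cenpa, the histone that marks the centromere (chromosome 5, 30666777 to 30674830), had 1176, 930 and 767 in PH70 and 2177, 3320 and 1885 in PH80. Its difference of 1.34 ± 0.39 (SE, adjusted p = 0.0762) was the second largest of the 48 genes.

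The spindle assembly genes differed least between the resections: the medians by role ran from 0.48 in these 6 genes to 0.87 in the 4 genes of the passenger complex, and the difference between roles was not tested. Tpx2, the activator of Aurora A on the spindle (chromosome 2, 152847964 to 152895321), had 616, 750 and 832 in PH70 and 857, 1904 and 1015 in PH80. Ckap2, a microtubule protein of the spindle (chromosome 8, 22168160 to 22185819), had 663, 667 and 736 in PH70 and 669, 1275 and 865 in PH80. Tpx2 did not overlap, though narrowly, and Ckap2 did; neither passed (limma adjusted p = 0.247 and 0.443). Prc1, which bundles microtubules of the central spindle before cytokinesis (chromosome 7, 80294450 to 80316259), had 623, 717 and 711 in PH70 and 1065, 2184 and 1145 in PH80. It did not overlap, at 1.02 ± 0.35 (SE, adjusted p = 0.122).

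Cdca3 (chromosome 6, 124829547 to 124833701) had 2332, 2305 and 1659 in PH70 and 2717, 5317 and 2682 in PH80, which did not overlap (limma adjusted p = 0.263). Kif20a, a kinesin of cytokinesis, had 1069, 1481 and 1371 in PH70 and 859, 2678 and 1240 in PH80. PH80 thus reached both below and above PH70, and without PH80 replicate 2 the log2 difference changed from 0.13 to -0.33. Kif20a shares 977 exon bases with Cdc23 on the other strand, and Prc1 shares 670 with Rccd1. In all, 14 of the 48 genes share exon bases with another annotated gene, 12 of them with a gene on the opposite strand. The library kit keeps strand, but no source used here says whether reads were counted by strand, so those values are uncertain by the reads of the partner gene.

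**Figure D3:**
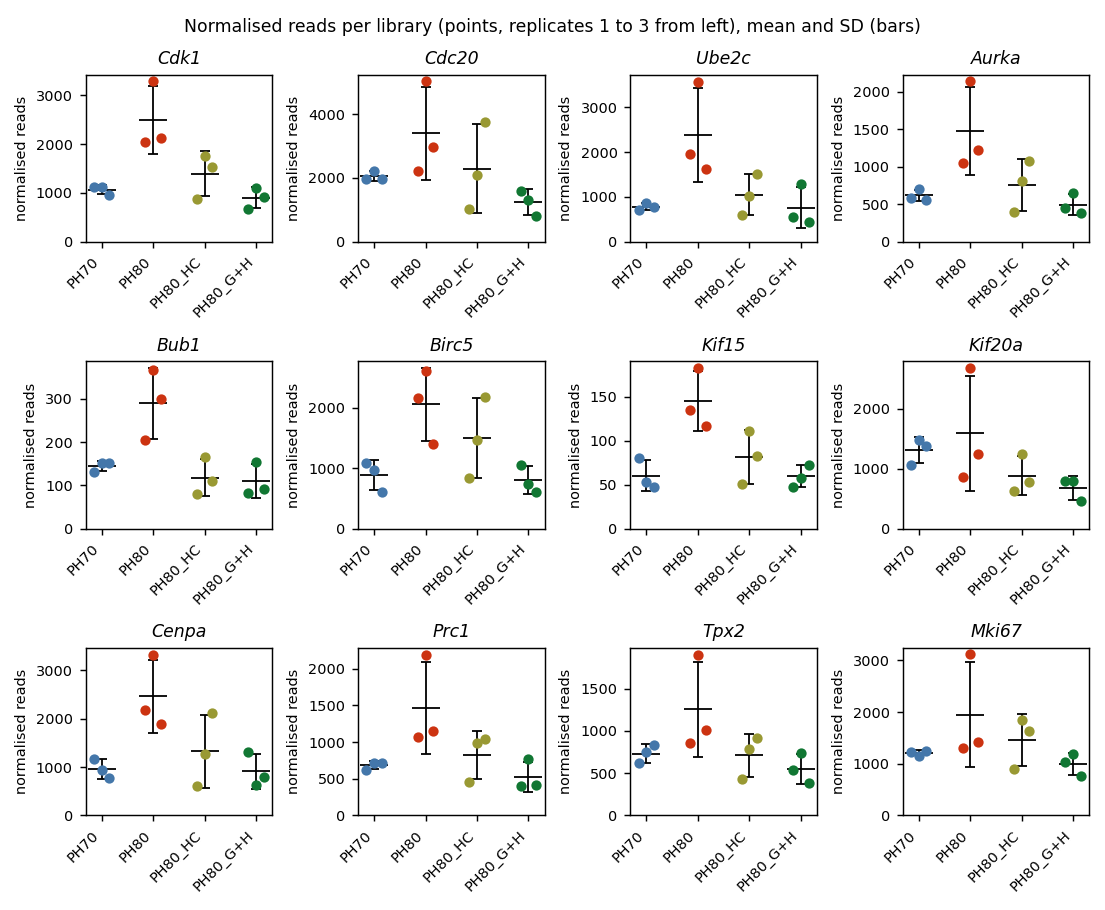
Normalised reads of 12 mitosis genes in each library (coloured points, replicates 1 to 3 from left to right in each group), with the group mean and SD (black bars), on linear axes from 0. The middle PH80 point, replicate 2, is the highest of all in each panel.

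The comparison of PH80_G+H with PH80 asks what the added G-CSF and HNF4a change at the same resection. All 48 genes had a lower mean in PH80_G+H, by a median of -1.19 on the log2 scale (2.28-fold), from -0.77 (Spc24) to -1.72 (Ube2c). No gene passed on the adjusted p from limma (0 of 48, beside 0.119% of all genes) and edgeR called 0, while at an unadjusted p under 0.05 all 48 were lower, beside 4.96% of all genes. The 3 PH80_G+H libraries all lay below the 3 PH80 libraries in 40 of 48 genes, beside 8.11% of all genes. DESeq2 called 30 of 48 lower, beside 0.827% of all genes. Without PH80 replicate 2, DESeq2 called 1 (beside 0.119%), while 48 of 48 remained lower in mean with a median of -0.89, and 40 of 48 lay wholly below (beside 13.3% of all genes with 2 libraries against 3).

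Cdk1 came nearest the threshold, at 903 ± 218 (SD, n = 3) in PH80_G+H against 2486 in PH80, with a log2 difference of -1.45 ± 0.27 (SE, limma adjusted p = 0.0650). It passed in DESeq2 with all libraries (adjusted p = 0.000268). Over the alternative settings its adjusted p ran from 0.000268 to 0.332. Ube2c had 597, 1029 and 1518 in PH80_HC and 541, 1279 and 449 in PH80_G+H, the last 3 all under the lowest PH80 library of 1617, with the largest difference of the list (-1.72 ± 0.40, SE, limma adjusted p = 0.143). Aurka had 451, 655 and 379, against at least 1049 in each PH80 library (-1.54, adjusted p = 0.128).

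By role, 8 of 8 centromere and kinetochore genes did not overlap between PH80_G+H and PH80, where 8.11% of all genes lay wholly below. That share stands beside each count of this paragraph. The genes share the same libraries and are not independent, and the difference between roles was not tested. Cenpe, a kinetochore motor, and Cenpf, a large kinetochore protein, both differed by -1.50, and Cenpa by -1.46 (1315, 630 and 788 in PH80_G+H). The passenger complex had no overlap in 4 of 4 genes, with Birc5 at 1058, 741 and 605. Of the 8 kinesins, 7 did not overlap, with Kif18b the exception, and Kif20a had 800, 797 and 454, below its lowest PH80 value of 859. Of the 4 genes for chromosome structure, transcription and others, only Mki67, the gene of the proliferation marker Ki-67, did not overlap. Top2a, Foxm1 and Cdca3 did overlap, with Cdca3 at 2713, 1804 and 1033. Cdc20 had 1604, 1316 and 793, Bub1 82.8, 155 and 91.8, Tpx2 539, 735 and 385, Ckap2 454, 436 and 309, and Prc1 401, 765 and 415. Each of these 5 genes lay below every PH80 library.

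The comparison of PH80_HC with PH80 gave smaller and less even differences. All 48 genes had a lower mean in PH80_HC, by a median of -0.74 (1.67-fold), from -0.31 (Ccnb2) to -1.31 (Bub1). None passed in limma (0 of 48, beside 0.891% of all genes) or edgeR, and 26 of 48 were lower at an unadjusted p under 0.05, beside 6.3% of all genes. In 10 of 48 the PH80_HC libraries lay wholly below those of PH80, beside 7.38% of all genes in that direction, and DESeq2 called 2 (Bub1 and Kif23, named after their values were seen), beside 1.23%. Without both PH80 replicate 2 and PH80_HC replicate 1, the median was -0.11 and 32 of 48 genes remained lower. Those 2 libraries are the highest of PH80 and the lowest of PH80_HC for these genes. Leaving out both had to shrink the difference, so it cannot show what the difference rests on. With either left out alone, 46 of 48 were lower, with medians of -0.45 and -0.43.

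Bub1 showed the clearest separation, with 79.4, 165 and 109 in PH80_HC, all below the lowest PH80 value of 204 (log2 difference -1.31 ± 0.31, SE, limma adjusted p = 0.0683). Cdk1 also did not overlap (-0.86, adjusted p = 0.159), nor did Kif15 (-0.87, adjusted p = 0.228). Prc1 did not either, with 450, 983 and 1044 against at least 1065 in PH80. The following 8 genes overlapped, some widely and others narrowly, such as Aurka (at most 1078, against at least 1049 in PH80). Cdc20 had 1012, 2106 and 3763, so that PH80_HC replicate 3 lay above 2 of the PH80 libraries, and Birc5 had 844, 1464 and 2174 and Cenpa 610, 1269 and 2113 in the same order. Aurka had 395, 804 and 1078, Kif20a 619, 1242 and 785, Tpx2 427, 784 and 918, Ckap2 343, 761 and 547, and Cdca3 1821, 2821 and 3150. In each of these 8 genes PH80_HC replicate 1 was the lowest of its group.

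**Figure D4:**
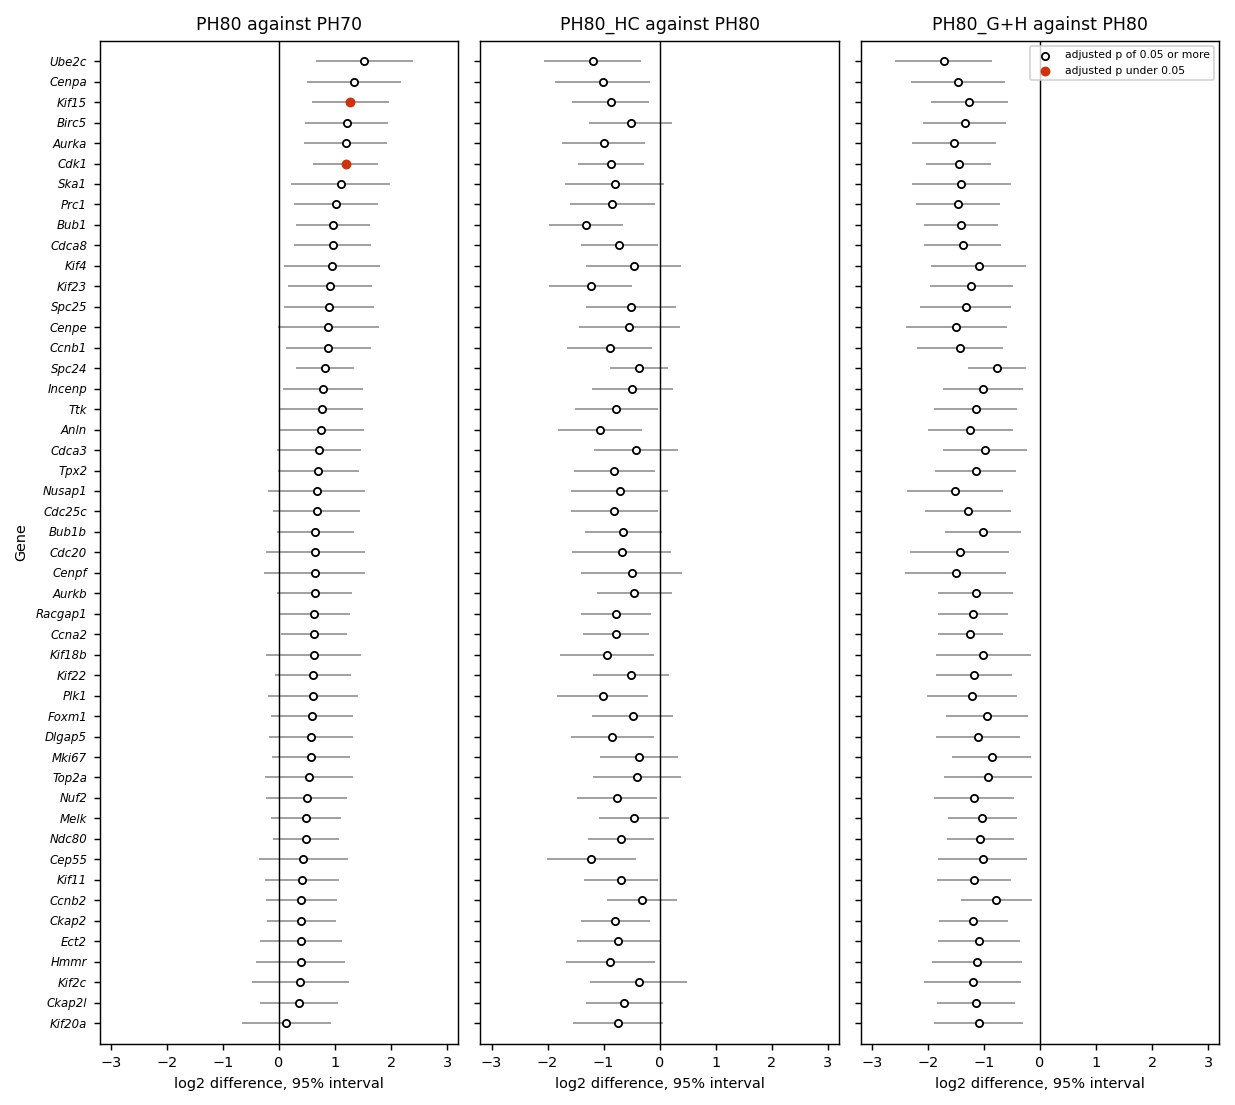
Log2 differences (points) with 95% intervals (grey lines) from limma for the 48 genes in 3 comparisons, ordered by the difference between PH80 and PH70, where Cdk1 and Kif15 (red) passed. In PH80_G+H against PH80 all 48 intervals lie below 0, though no adjusted p is under 0.05. The 3 panels share the PH80 libraries.

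The 3 comparisons above share the PH80 libraries, so a high PH80 library moves all of them, and their values are set side by side rather than as support for each other. The remaining comparisons do not involve PH80. PH80_HC and PH70 did not differ in a common direction: 24 genes were higher and 24 lower, with a median of 0.00, and 0 of 48 passed in limma (beside 0.231% of all genes) or DESeq2. With every library scaled to the same total, 13 were higher and the median was -0.21, where that of all genes moved to -0.20. The interval of the difference was wide, from -0.26 to 0.91 for Cdk1 and from -0.05 to 1.43 for Birc5, so that equality is not shown. Against PH70, PH80_G+H had a lower mean in 46 of 48 genes, with a median of -0.47. None passed (0 of 48, beside 0.00796% of all genes), 5 were lower at an unadjusted p under 0.05 (beside 2.73% of all genes), and 16 lay wholly below PH70, beside 7.57% of all genes in that direction. Those 5 were Ccna2, Kif11, Kif20a, Ckap2 and Ckap2l, and Ckap2 (-0.80, 95% interval from -1.42 to -0.19, limma adjusted p = 0.618) had the smallest p.

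Between the HC arm and the arm with G-CSF and HNF4a, PH80_HC had a higher mean than PH80_G+H in 46 of 48 genes, with a median of 0.48. None passed (0 of 48, beside 0.255% of all genes), 6 were higher at an unadjusted p under 0.05 (beside 7.08% of all genes), and in 0 of 48 did PH80_HC lie wholly above PH80_G+H, as it did in 8.71% of all genes. The largest difference was that of Cenpf (95% interval from 0.10 to 1.91, limma adjusted p = 0.317).

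Among 84 other mitosis genes that are not in the list of 48, such as condensins, further kinetochore subunits and regulators of Cdk1, the same comparisons were made. In PH80 against PH70, 80 of 84 had a higher mean with a median of 0.64. Limma called 6 higher (beside 1.09% of all genes), edgeR 3 (beside 117 of 12570 genes) and DESeq2 15 (beside 2.78%). These 6 were Cks1b and Cks2, small proteins that bind cyclin-dependent kinases, Cenpw and Ska2 of the kinetochore, Bora, a cofactor of Aurora A, and Trip13, which disassembles checkpoint complexes. Cks1b had 412, 303 and 299 in PH70 and 806, 957 and 700 in PH80, with no overlap (log2 difference 1.28 ± 0.21, SE, limma adjusted p = 0.00761). The other 5 also did not overlap, with differences from 1.09 (Cks2 and Trip13) to 1.48 (Bora), though the calls of Bora, Cks2 and Trip13 were lost in 17, 16 and 20 of 28 settings. Against PH80, PH80_G+H was lower in 81 of 84 with a median of -0.90. None was called in limma (beside 0.119% of all genes) or edgeR. At an unadjusted p under 0.05, 61 were lower (beside 4.96% of all genes), and DESeq2 called 25 lower (beside 0.827%). PH80_HC was lower than PH80 in 77 of 84 with a median of -0.52. Again none was called in limma (beside 0.891%) or edgeR. At an unadjusted p under 0.05, 33 were lower (beside 6.3%), and DESeq2 called 6 lower (beside 1.23%).

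The genes of S phase, which precede mitosis in the cycle, differed less. Of 40 genes of DNA replication, 31 were higher in PH80 than in PH70 with a median of 0.29. Limma called 1 of 40 higher and 1 lower, beside 3.82% of all genes in either direction. Ccne1, the cyclin of the G1 to S transition, rose, with 111, 121 and 109 in PH70 and 222, 352 and 355 in PH80 (1.41 ± 0.23, SE, limma adjusted p = 0.00761). Mcm10, a factor that starts replication forks, fell, with 2015, 1563 and 754 in PH70 and 378, 339 and 475 in PH80 (-1.76 ± 0.33, SE, adjusted p = 0.0138). In PH80_G+H against PH80, 26 of 40 were lower with a median of -0.18. In PH80_HC against PH80, 25 of 40 were higher with a median of 0.04. No S phase gene passed in limma in these last comparisons (beside 0.119% of all genes in PH80_G+H and 0.891% in PH80_HC). At an unadjusted p under 0.05 in either direction, 8 of 40 passed in PH80_G+H (beside 10.5% of all genes). In PH80_HC 4 of 40 did (beside 14.3%). DESeq2 called 1 higher in each, beside 99 and 353 of 12570 genes called higher. Whether the S phase and mitosis lists differ was not tested.

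The 21 regulators include the MuvB core, Myb and E2F factors and inhibitors of cyclin-dependent kinases. Limma called 3 of 21 between PH80 and PH70 (2 higher and 1 lower), beside 3.82% of all genes in either direction. Mybl1, a Myb factor related to the partner of MuvB at mitotic promoters, had 90.2, 87.7 and 176 in PH70 and 620, 788 and 723 in PH80, a rise of 2.65 ± 0.30 (log2, SE; limma adjusted p = 0.000929). It fell in PH80_HC relative to PH80, with 306, 237 and 145 (-1.68, adjusted p = 0.0237), and had 328, 430 and 373 in PH80_G+H (-0.91, adjusted p = 0.277). E2f2 rose in PH80 against PH70 (1.04, adjusted p = 0.0265), and Rbl2, the DREAM subunit p130, fell (-1.19, adjusted p = 0.0478). EdgeR called Mybl1 and E2f2 but not Rbl2, whose call was lost in 16 of 28 settings. Mybl2 was scarce, at 15.6 to 32.7 in PH70 and 18.3 to 41.1 in PH80, which overlapped (adjusted p = 0.852). E2f7 and E2f8, which act in polyploidization of hepatocytes, and the inhibitor Cdkn1a were not called in any comparison, and Cdkn1a had 866, 1121 and 1534 in PH70 and 2533, 2596 and 1599 in PH80. Foxm1, the forkhead activator of mitotic genes and a member of the 48, had 393, 362 and 393 in PH70 and 361, 1074 and 490 in PH80, which overlapped.

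**Figure D5:**
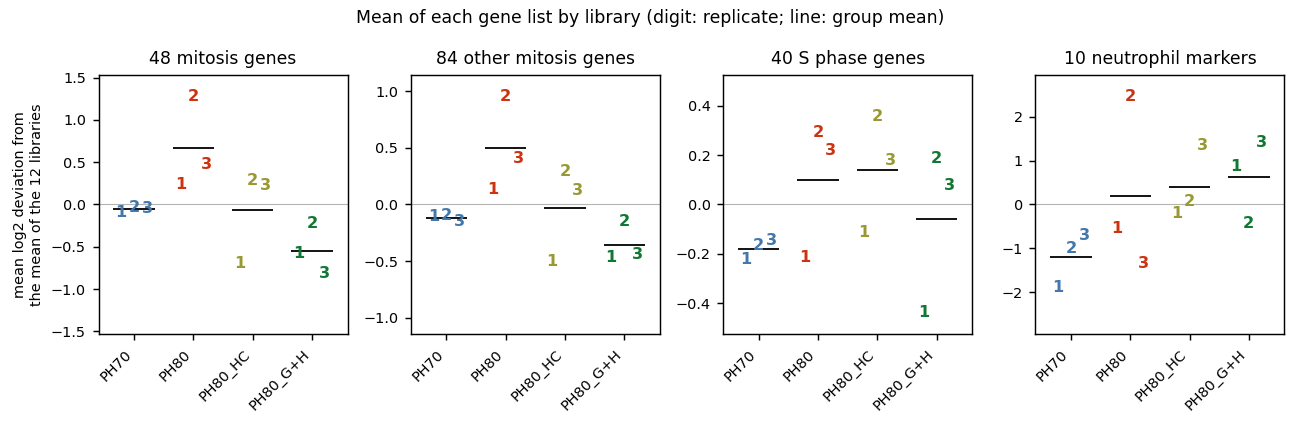
Mean log2 deviation of 4 gene lists in each library (digits are replicate numbers, black lines group means; each panel has its own vertical scale). PH80 replicate 2 is highest for both mitosis lists and for the neutrophil markers, and PH80 replicate 3 is high for mitosis but the second lowest library for neutrophil markers.

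What the genes shared in their promoters was set beside their response. The 16 genes with CHR or its variant had a median difference between PH80 and PH70 of 0.55, and the 22 without had 0.76. Between PH80_G+H and PH80 the medians were -1.18 and -1.24. For CCAAT, 29 genes with and 9 without had 0.64 and 0.49 in PH80 against PH70, and -1.20 and -1.21 in PH80_G+H against PH80. Transcript length, which ran from 1466 to 11130 bases with a median of 3039 over the 48 genes, had a Pearson correlation of -0.14 with the difference between PH80 and PH70 across the 48 genes, which share libraries and are not independent. These are descriptions without a test.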

How the data were processed

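Per the labels' protocols, a stranded mRNA kit was used on 100 ng of total RNA for each of the 12 libraries. DESeq2 and the build GRCm38 (mm10) are named in the submitters' processing notes; aligner and counting tool: not given in the sources used here. Deposited values are a normalised signal per gene and library, which the values show to be counts divided by 1 factor per library: 100% of the values gave whole reads within 0.01. Values were analysed as log2(value + 1) in limma 3.58.1 (R 4.3.3) over all 12 libraries with an intensity trend, in 12570 genes that reached 10 in 3 or more libraries. Fold changes are on this scale and understate those of scarce genes. Two-sided p-values were adjusted by Benjamini-Hochberg over all genes, with a threshold of 0.05, for 6 comparisons and 1 F test. EdgeR 4.0.16 (quasi-likelihood) and DESeq2 1.42.0 were run on the recovered reads as alternatives, beside other scalings, filters, pseudocounts, library weights, a length and GC correction, a replicate block and each library left out. The 48 genes and the other gene lists were chosen with earlier results of these data known. Of the 48 genes, values in every library are given for those called in limma and for those with the smallest F test p and the largest mean of each role. Ube2c, other genes given with part of their values and the 4 promoters were chosen after the values were seen. Coordinates and transcript lengths are from GENCODE M21.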

Additional observations from a re-analysis of the deposited data

How the results depend on the processing

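The number of the 48 genes that passed depended on the model. In PH80 against PH70 (2 called in limma), edgeR gave 1, DESeq2 10, library weights 11, equal totals 0, limma without the intensity trend 0, and a fit of only those groups 6. Leaving out 1 library at a time gave 0 to 7, with 7 without PH80_HC replicate 1. Leaving out PH80 replicate 2 and PH80_HC replicate 1 together gave 0, and leaving out, in each group, the library whose values followed transcript length most steeply gave 1 (both chosen after seeing the data, as was DESeq2 without PH80 replicate 2). In PH80_HC against PH80 (0 called), DESeq2 gave 2, the length and GC correction 1, and 1 library left out 0 to 1. In PH80_G+H against PH80 (0 called), DESeq2 gave 30 and without PH80 replicate 2 gave 1, library weights gave 16, the length and GC correction 1, the steepest libraries left out 1, only those groups 1, and 1 library left out 0 to 2. In PH80_G+H against PH70 (0 called), library weights gave 7. The F test (1 called) gave 29 with library weights, 2 with the length and GC correction and 0 with equal totals. It gave 0 without the trend and 0 to 4 with 1 library left out. For any difference among the groups, DESeq2 used a likelihood ratio test, another statistic than the F test. That test called 30, and 3 without PH80 replicate 2. With all libraries it called 1226 of 12570 genes in all. For library weights, fits of only 2 groups and the other alternative limma settings, shares of all genes are not given. Counts under those settings describe the dependence on the setting and are not a result about the mitosis genes. The cause of these changes was not tested.

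With the replicate number as a block, PH80_HC against PH80 gave 1, PH80_G+H against PH80 gave 2 and the F test gave 2, again without a share of all genes. The numbers are those of the sample titles, and the labels state no pairing or batch. Same-numbered libraries correlated from -0.37 to 0.37 in their deviations, beside -0.53 to 0.43 for other numbers, and 6 of 18 same-numbered pairs were over 0.1. Of the 12 libraries, 1 correlated best with its own number. A pairing or batch that follows anything but these numbers was not tested.

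The median differences kept their sign in the 3 comparisons with PH80, from 0.32 to 0.94 for PH80 against PH70, from -1.59 to -0.89 for PH80_G+H against PH80 and from -1.08 to -0.11 for PH80_HC against PH80, the last value without both libraries. Equal totals moved the median of all genes by 0.12 in PH80 against PH70 and by -0.33 in PH80_HC against PH80, with medians of the 48 genes of 0.76 and -1.07. Kif20a in PH80 against PH70 changed sign to -0.078 with library weights, to -0.33 without both libraries and to -0.31 in DESeq2 without PH80 replicate 2, and ran from -0.33 to 0.49 with 1 library left out (-0.01 without PH70 replicate 1). Without both libraries, Birc5, Cdc20 and Cdca3 in PH80_HC against PH80 changed sign to 0.039, 0.14 and 0.14. Of 28 settings, the call of Cdk1 was lost in 9, Kif15 in 15, Bora in 17, Cks2 in 16, Trip13 in 20, Rbl2 in 16, E2f2 in 7, Cenpw in 6, Ska2 in 6, Mcm10 in 5 and Cks1b in 1. The calls of Ccne1 and Mybl1 in PH80 against PH70 held in all 28, and that of Mybl1 in PH80_HC against PH80 was lost in 5.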
